A study of Mus musculus with 9 samples.

Results

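The cornified envelope genes of the epidermal differentiation complex were followed in cells sorted from mouse skin over the first 2 postnatal weeks. Members were taken by symbol from the deposited gene table, as every gene whose symbol begins with Lce or Sprr, together with Flg2, Hrnr, Rptn, Tchh, Lor, Ivl, Crct1 and Kprp, with the S100 genes left out. That gave 45 of the 24532 genes: 14 Lce1 and 6 Lce3 genes, Lce6a, 2 Sprr1 genes, 12 Sprr2 genes, Sprr3 and Sprr4, 4 genes of the S100-fused type (Flg2, Hrnr, Rptn and Tchh), and Lor, Ivl, Crct1 and Kprp. Flg, the filaggrin gene, was not analysed here. All 45 lie on chromosome 3 between positions 92080271 (Lor) and 93449077 (Tchh) of GRCm38 (mm10), a span of 1369 kb.

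The cells came from fresh skin of C57BL/6 mice at postnatal day 1, day 7 or day 14, with 3 libraries per day and no treatment or introduced allele named in the labels. Each library is labelled keratinocyte and came from viable cells (negative for propidium iodide, PI-) without the leukocyte antigen CD45.2 (CD45.2-), from which stranded libraries of polyadenylated RNA were sequenced. The gate selects no keratinocyte marker. The labels give neither the sex of the animals nor which animals went into a library, so a p-value reflects the scatter among libraries of a day, and that scatter may be technical. Library numbers are those of the column headers (day 7 has libraries 1, 2 and 3, and the other ages have 4, 5 and 6), and the columns headed D0 were taken as day 1 because the other days have headers of their own. The day 7 headers also have KLRNA where the others have KL. What that stands for is not given, and any difference behind it cannot be told apart from day 7.

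As keratinocytes leave the basal layer they build, beneath the plasma membrane, an envelope of proteins joined by transglutaminases. Involucrin (Ivl) is laid down early on a scaffold of envoplakin and periplakin, small proline-rich proteins (Sprr) act as cross-bridges, loricrin (Lor) forms the bulk of the mature envelope, and late cornified envelope proteins (Lce) are added in the outermost living cells. The S100-fused proteins carry calcium-binding hands at the start of a long repeat region. Filaggrin and its relatives Flg2 and Hrnr work in the cornified layer, and trichohyalin (Tchh) does so mainly in the inner root sheath of the hair follicle. The genes sit side by side and are switched on in differentiating cells.

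Total counts per library ran between 50670191 and 62970768. Keratinocyte markers were abundant: the 6 listed summed to 44664 to 50969 CPM (library-scaled counts, with TMM factors) for day 1, 45406 to 47992 for day 7 and 34664 to 36289 for day 14, and Ptprc, the gene of the leukocyte antigen used in the gate, never exceeded 9 counts. The 5 melanocyte markers summed to 345 to 376 CPM for day 1, 98.8 to 120 for day 7 and 4.0 to 8.07 for day 14, and the 6 fibroblast markers to 122 to 225, 17.2 to 61.6 and 16.8 to 37.2 CPM. The 9 leukocyte markers summed to 1.58 to 2.80, 3.23 to 4.34 and 18.1 to 19.9 CPM, and the 4 sebocyte markers to 297 to 318, 260 to 296 and 609 to 633 CPM. The sebocyte sum was nearly all Scd1 and Fasn, while Mc5r averaged at most 0.143 CPM and Awat1 at most 0.0690 CPM at any age, with no Awat1 count at day 14. Endothelial and muscle markers stayed at or under 2.54 CPM, and erythroid markers reached 27.8 CPM at day 7. The 8 genes of the handling response (Fos, Jun, Egr1 and others, which rise when tissue is dissociated) summed to 16377 to 20085 CPM for day 1, 20518 to 24706 for day 7 and 32072 to 35358 for day 14. Of these 8, 6 were higher at day 14 than at day 7, and the heat shock genes Hspa1a and Hspa1b were lower (log2 -1.49 and -1.28, edgeR adjusted p = 2.18e-06 and 7.82e-07). Of all tested genes, 32.5% were higher and 35.1% lower in that comparison. Xist, the RNA of the inactive X chromosome, had no count at day 7, and the Y-linked Ddx3y had none at day 14. Every day 1 library held both, at 861 to 1642 CPM for Xist and 29.0 to 55.6 CPM for Ddx3y. Sex and age therefore cannot be told apart here. The part of these shifts in the member values below was not tested. In bulk RNA, fewer cells of a type and less RNA per cell cannot be told apart.

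Promoters of 6 members are given first: Ivl, Sprr1a, Lor, Flg2 and Sprr2a1 for the courses described below, and Sprr2h, which had few reads, as the Sprr2 promoter with motifs to set beside that of Sprr2a1. Each is the RefSeq (GRCm38.p6) sequence from 250 bases before to 50 bases after the annotated start, written 5′ to 3′ on the gene's strand. Capitals mark the AP-1 motif TGANTCA (bound by Fos and Jun family factors), the TATA motif TATAAA and the octamer ATGCAAAT (bound by POU factors), searched on both strands. The windows are chr3:92573686-92573985 on the minus strand for Ivl, chr3:92485832-92486131 (minus) for Sprr1a, chr3:92083093-92083392 (minus) for Lor, chr3:93197023-93197322 (plus) for Flg2, chr3:92215585-92215884 (plus) for Sprr2a1 and chr3:92385435-92385734 (plus) for Sprr2h.
Ivl: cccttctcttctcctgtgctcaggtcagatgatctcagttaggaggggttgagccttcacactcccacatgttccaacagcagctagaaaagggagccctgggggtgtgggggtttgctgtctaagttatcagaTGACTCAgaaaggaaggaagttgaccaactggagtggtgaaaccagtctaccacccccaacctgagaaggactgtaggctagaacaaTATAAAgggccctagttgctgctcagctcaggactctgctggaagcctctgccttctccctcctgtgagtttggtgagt
Sprr1a: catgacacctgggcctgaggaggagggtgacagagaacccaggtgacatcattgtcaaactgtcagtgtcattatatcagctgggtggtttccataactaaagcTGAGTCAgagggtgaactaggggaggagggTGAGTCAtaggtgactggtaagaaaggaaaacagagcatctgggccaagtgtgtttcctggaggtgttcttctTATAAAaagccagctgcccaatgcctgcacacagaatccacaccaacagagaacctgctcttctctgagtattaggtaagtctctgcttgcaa
Lor: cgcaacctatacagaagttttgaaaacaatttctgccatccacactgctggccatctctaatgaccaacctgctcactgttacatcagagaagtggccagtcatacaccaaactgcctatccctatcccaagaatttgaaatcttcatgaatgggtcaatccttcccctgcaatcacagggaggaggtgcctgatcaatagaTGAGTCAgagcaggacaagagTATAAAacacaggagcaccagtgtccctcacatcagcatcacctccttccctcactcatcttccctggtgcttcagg
Flg2: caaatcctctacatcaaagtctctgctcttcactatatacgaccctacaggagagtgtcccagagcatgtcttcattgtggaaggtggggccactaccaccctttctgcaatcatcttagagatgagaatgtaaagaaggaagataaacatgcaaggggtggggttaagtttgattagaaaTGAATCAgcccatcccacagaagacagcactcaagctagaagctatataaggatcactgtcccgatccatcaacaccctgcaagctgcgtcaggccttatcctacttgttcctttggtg
Sprr2a1: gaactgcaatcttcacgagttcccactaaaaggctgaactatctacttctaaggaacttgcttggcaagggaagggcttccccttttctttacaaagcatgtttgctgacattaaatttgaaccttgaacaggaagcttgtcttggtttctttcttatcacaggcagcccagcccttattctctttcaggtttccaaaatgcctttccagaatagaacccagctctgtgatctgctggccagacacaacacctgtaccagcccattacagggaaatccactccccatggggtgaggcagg
Sprr2h: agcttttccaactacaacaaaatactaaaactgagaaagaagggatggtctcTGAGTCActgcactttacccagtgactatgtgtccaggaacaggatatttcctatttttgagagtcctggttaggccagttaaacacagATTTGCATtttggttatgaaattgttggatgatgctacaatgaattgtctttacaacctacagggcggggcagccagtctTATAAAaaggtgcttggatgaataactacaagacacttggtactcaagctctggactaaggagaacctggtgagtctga

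A promoter was matched for 40 of the 45 members. AP-1 motifs stood in 13 of the 40 (32.5%), against 7.93% of all 27025 promoters of this length, TATA motifs in 18 (45.0%, against 14.2%) and octamers in 7 (17.5%, against 1.75%). The motif CACCC, bound by Klf factors, was in 19 (47.5%, against 56.7%). The Ivl promoter held 1 AP-1 motif, at position -116 from the annotated start, Sprr1a held 2, at -146 and -116, Lor 1 at -48 and Flg2 1 at -69. The promoter of Rptn, which was lower at day 7 than at day 1, also held AP-1 and TATA motifs. That of Hrnr, which was higher at day 14, held no AP-1 motif. Of the 13 promoters with AP-1 motifs, 7 were those of Sprr2 copies, so the 13 are not independent. The window of Sprr4, which had the largest rise, held none of the AP-1, TATA and octamer motifs. Its annotated gene is a single run of 231 bases that begins with the letters ATG. The window may therefore lie just before coding sequence and not at a transcription start, and the Sprr4 start in use was not measured. All 7 octamers were in Sprr2 promoters (Sprr2b, Sprr2d, Sprr2e, Sprr2f, Sprr2h, Sprr2i and Sprr2k), each of which also held an AP-1 and a TATA motif, and none of these genes exceeded 19 counts in a library. The windows of the 3 Sprr2a copies, which gave nearly all Sprr2 reads, held none of the 3 motifs. The Sprr2a1 and Sprr2a2 windows were identical over 300 bases, and that of Sprr2a3 shared an unbroken run of 272 bases with them. The Sprr2a annotations differ between sources. The Sprr2a1 start is at position 92215799 in GENCODE and 92215835 in RefSeq, both within the window printed above. For Sprr2a2 the GENCODE first exon is at 92215920, inside the Sprr2a1 locus, and the RefSeq start is at 92250647, and exons of these 2 genes overlap on the same strand in GENCODE. The RefSeq Sprr2a1 gene spans 6657 bases, against 1640 for Sprr2h, and the start in use in these cells was not measured. A match is a description of letters and not evidence of a bound site.

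Of the 45 members, 8 had no count in any of the 9 libraries (Lce3a, Lce3d, Lce3e, Lce3f, Sprr2i, Sprr2j-ps, Sprr2k and Sprr3). A further 17 had some counts but too few to test, with at most 26 in a library and 71 over all 9. The 20 others passed the filter on low counts and were tested with edgeR's quasi-likelihood test, with p adjusted by the Benjamini-Hochberg method over the 14507 genes and a change called at an adjusted p under 0.05. Since a member can pass the filter through the day at which it is high, counts over the 20 describe those genes and not the whole family.

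Between day 7 and day 1, 7 of the 20 members were higher (Ivl, Sprr1a, Sprr4, the 3 Sprr2a copies and Lce6a), 1 was lower (Rptn) and 12 were not called. Sprr1b joined Rptn as lower when day 1 library 5 or day 7 library 1 was left out. Over all tested genes, 25.5% were higher and 24.0% lower. Between day 14 and day 7, 9 members were higher and 6 lower, against 32.5% and 35.1% of all genes. Between day 14 and day 1, 11 were higher and 6 lower, against 35.5% and 38.4%. The members' median log2 fold changes in these comparisons were 1.14, 1.15 and 1.42, and those of all genes were -0.001, -0.035 and -0.046. A difference anywhere over the 3 days was called for 18 of the 20 members (82.1% of all genes), all but Lce1c and Sprr2h. The 9 members that were higher at day 14 than at day 7 were Lor, Sprr1a, Sprr1b, Sprr4, Ivl, Crct1, Flg2, Hrnr and Rptn. The 6 that were lower were the 5 tested Sprr2 genes and Lce6a.

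**Figure D1:**
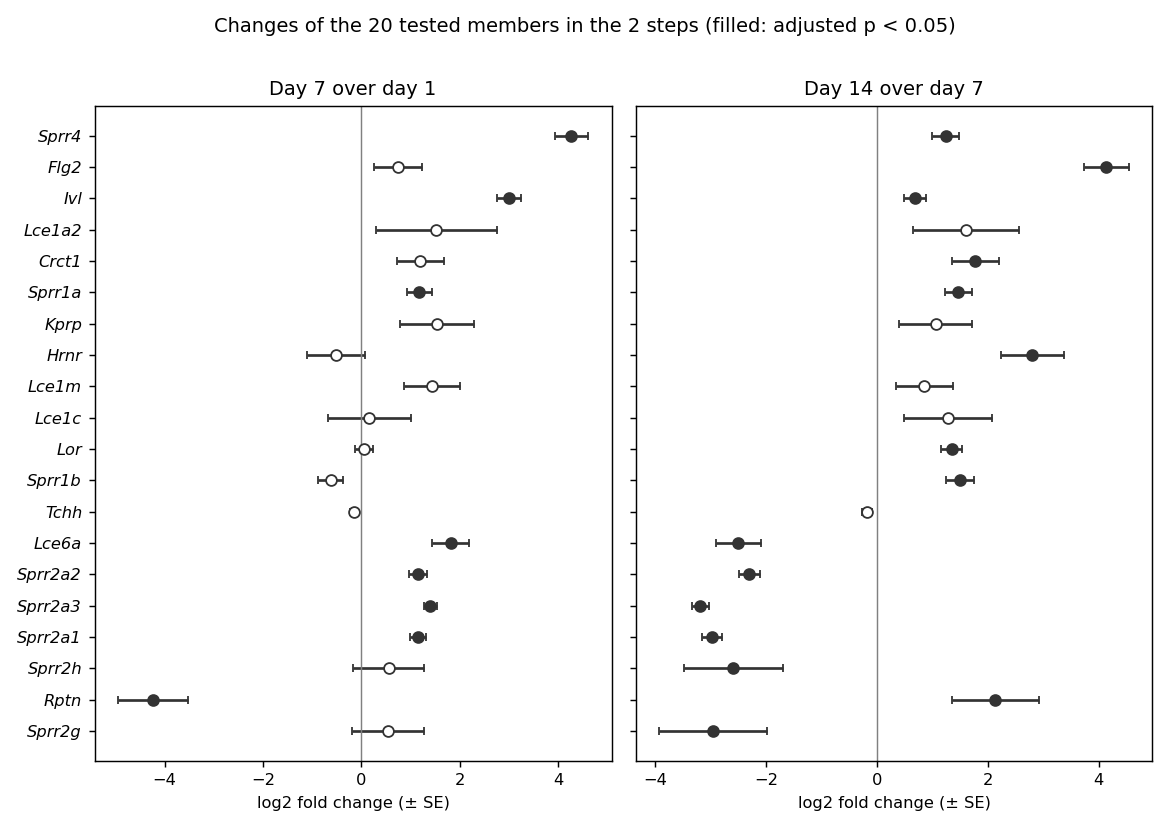
The 20 tested members down the page, with the log2 fold change (± SE) of day 7 over day 1 on the left and of day 14 over day 7 on the right. Filled points have an edgeR adjusted p under 0.05. Sprr4 and Ivl stand farthest to the right at the first step, Flg2 at the second, and the 5 Sprr2 genes and Lce6a lie left of 0 at the second step.

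Ivl, the early envelope precursor, had most of its increase in the first week. It was at 0.725, 1.25 and 0.960 CPM in the day 1 libraries, at 9.27, 6.64 and 7.64 CPM at day 7 and at 16.1, 10.05 and 11.8 CPM at day 14. No library of one day reached the range of another. Ivl was higher at day 7 than at day 1 by 3.0 ± 0.241 on the log2 scale (SE, edgeR adjusted p = 3.01e-06), and higher at day 14 than at day 7 by 0.69 ± 0.205 (adjusted p = 0.0125). The second step lost its call without day 7 library 2 (adjusted p = 0.0503) or without day 14 library 4 (0.0539), the library with the highest value, and against a fold of 1.5 (0.409). Over both steps Ivl was 12.9-fold higher at day 14 than at day 1 (adjusted p = 1.6e-07).

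Sprr4, a single-copy proline-rich gene, made the largest rise of any tested member between day 7 and day 1. It had 11, 5 and 5 counts at day 1, 162, 104 and 113 at day 7 and 329, 255 and 192 at day 14, which is 0.108 ± 0.0472, 2.15 ± 0.432 and 5.07 ± 1.39 CPM (SD, n = 3 each). The 3 days did not overlap. It was 19.3-fold higher at day 7 than at day 1 (log2 4.27 ± 0.341, edgeR adjusted p = 8.34e-07), 2.36-fold higher at day 14 than at day 7 (adjusted p = 0.000797) and 45.4-fold higher at day 14 than at day 1 (adjusted p = 1.72e-08). Its annotated gene is a single run of 231 bases, and per kb of that length it was at 0.468 ± 0.204, 9.29 ± 1.87 and 21.9 ± 6.03 CPM, which depends strongly on the annotation.

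The Sprr1 genes, cross-bridge proteins also known from stressed and cornifying cells, took separate courses. Sprr1a was at 18.9, 23.6 and 33.0 CPM at day 1, at 70.9, 47.5 and 52.2 CPM at day 7 and at 179, 148 and 145 CPM at day 14. It rose in both steps without overlap, by 1.18 ± 0.246 for day 7 over day 1 (log2, edgeR adjusted p = 0.00698) and by 1.47 ± 0.243 for day 14 over day 7 (adjusted p = 0.00148). Against a fold of 1.5 the first step had an adjusted p of 0.072. Sprr1b was at 2.50, 1.72 and 2.6 CPM at day 1, at 1.77, 1.60 and 1.04 CPM at day 7 and at 3.38, 3.85 and 5.29 CPM at day 14. Its day 7 and day 1 libraries overlapped (log2 -0.62 ± 0.252, adjusted p = 0.0573). It passed the test as lower at day 7 without day 1 library 5 (0.0292) or without day 7 library 1 (0.0432). At day 14 it was higher than at day 7 (log2 1.5 ± 0.251, adjusted p = 0.000202) and than at day 1 (0.87 ± 0.244, adjusted p = 0.00619), with no overlap. Per kb of transcript, Sprr1a stood at 195 ± 23.5 CPM at day 14 and Sprr1b at 5.03 ± 1.20 CPM.

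The Sprr2 genes, a cluster of small proline-rich copies, went the other way in the second week. Summed over the 12 genes, they were at 69.3, 55.1 and 63.5 CPM at day 1, at 147, 128 and 149 CPM at day 7 and at 20.9, 23.8 and 14.96 CPM at day 14. The days did not overlap. The summed mean at day 7 was 2.25-fold that of day 1, and at day 14 it was 7.11-fold lower than at day 7 and 3.15-fold lower than at day 1. The 3 Sprr2a copies made up 62.1 ± 7.00, 140 ± 11.6 and 19.7 ± 4.34 CPM of these sums, and the 9 other Sprr2 genes together 0.532 ± 0.215, 0.729 ± 0.206 and 0.147 ± 0.151 CPM (SD, n = 3).

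Each Sprr2a copy followed the sum. Sprr2a1 was at 47.1, 36.2 and 40.8 CPM at day 1, at 91.9, 81.7 and 101 CPM at day 7 and at 12.6, 13.4 and 8.86 CPM at day 14. It was higher at day 7 than at day 1 by 1.15 ± 0.159 (log2, edgeR adjusted p = 0.000609) and lower at day 14 than at day 7 (log2 -2.98 ± 0.175, adjusted p = 2e-06). For Sprr2a2 the log2 fold changes were 1.14 and -2.30 (adjusted p = 0.000821 and 7.37e-06), and for Sprr2a3 they were 1.40 and -3.19 (4.13e-06 and 4.43e-09). All 3 were also lower at day 14 than at day 1, with log2 fold changes of -1.83, -1.16 and -1.79. These single-copy values are uncertain, since Sprr2a1 shares 92.5% of its 100-base GENCODE transcript windows with other members, Sprr2a2 92.8% and Sprr2a3 36.2%. Sprr2a1 took 56.9% to 68.5% of the Sprr2a counts in a library, Sprr2a2 17.3% to 32.9% and Sprr2a3 10.2% to 14.2%. Sprr1a, Sprr1b and Sprr4 share no such window with another member.

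Beyond the Sprr2a copies, Sprr2g and Sprr2h passed the filter with few reads. RefSeq lists Sprr2g as a transcribed pseudogene, as it does Sprr2j-ps. Sprr2g had 14, 5 and 16 counts at day 1, 12, 13 and 21 at day 7 and 0, 5 and 0 at day 14. Sprr2h had 18, 8 and 11 counts at day 1, 17, 19 and 14 at day 7 and 0, 7 and 0 at day 14. At day 14 all their reads therefore came from library 5. Both were lower at day 14 than at day 7, with log2 fold changes of -2.96 ± 0.973 for Sprr2g (edgeR adjusted p = 0.0173) and -2.59 ± 0.899 for Sprr2h (0.0226). The Sprr2g call ended when day 7 library 3 (0.0628), or at day 14 library 4 (0.0578) or library 6 (0.0592), was left out. The Sprr2h call ended when day 7 library 2 (0.0523), or at day 14 library 4 (0.0713) or library 6 (0.0728), was left out. Without day 14 library 5 the fitted values were -6.98 and -7.06, which are no bound since the remaining day 14 libraries had no count. Against day 1, Sprr2g was called lower at day 14 (log2 -2.42, adjusted p = 0.044) with overlapping libraries, and that call was lost in 7 of the 9 fits that left out a library (0.0527 to 0.127) and against a fold of 1.5 (0.105). Among the fits that left out a library, the exceptions were those without library 5 of day 1 or of day 14.

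**Figure D2:**
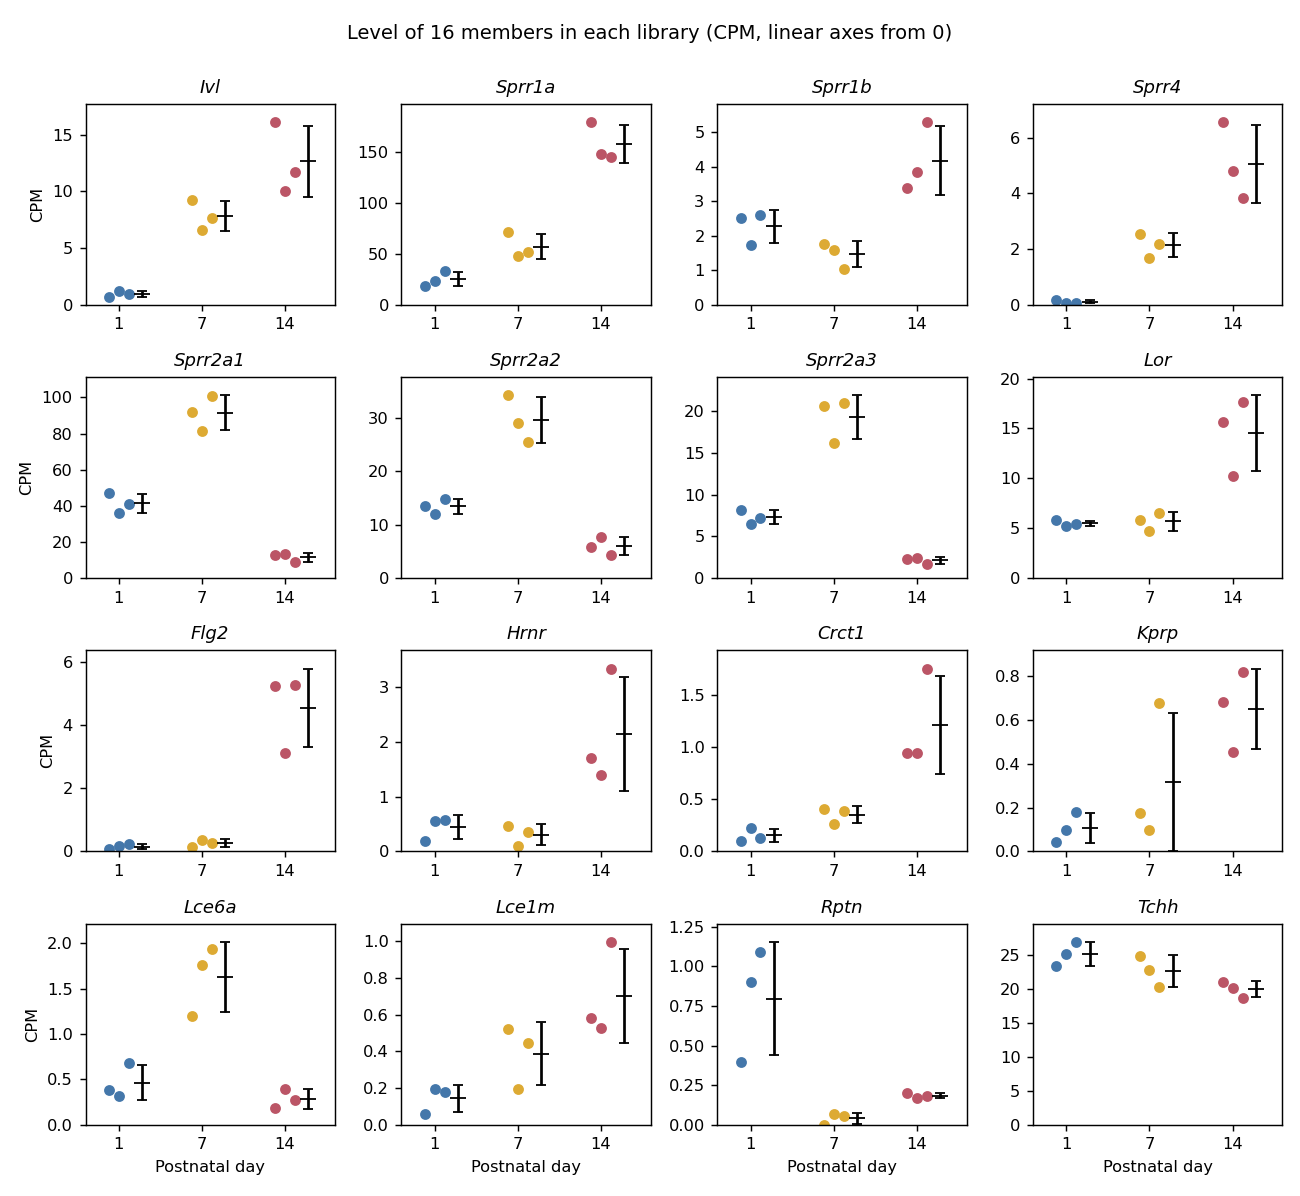
CPM of 16 members in each library (points, 3 per postnatal day) with the mean and SD beside them, on linear axes that start at 0. Ivl, Sprr1a and Sprr4 step up at both ages, the 3 Sprr2a copies peak at day 7, Lor and Flg2 are high at day 14, and Rptn is high at day 1.

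Lor, the main protein of the mature envelope in textbook accounts, differed between days by day 14. It was at 5.80, 5.23 and 5.40 CPM at day 1, at 5.84, 4.68 and 6.56 CPM at day 7 and at 15.6, 10.3 and 17.7 CPM at day 14. The first 2 days overlapped (log2 0.05 ± 0.191, edgeR adjusted p = 0.841), and the day 14 libraries were all above both. Lor was higher at day 14 than at day 7 by 1.35 ± 0.189 on the log2 scale (adjusted p = 9.21e-05) and than at day 1 by 1.40 ± 0.189 (5.13e-05). Per kb of transcript it was at 3.08 ± 0.164, 3.20 ± 0.533 and 8.16 ± 2.14 CPM.

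Among the S100-fused genes, Flg2 and Hrnr rose in the second week. Flg2 had 5, 10 and 14 counts at day 1, 8, 23 and 14 at day 7 and 263, 165 and 265 at day 14. The days up to 7 overlapped, and day 14 stood clear of both. Flg2 made the largest change of any tested member between day 14 and day 7, at 17.6-fold higher (log2 4.14 ± 0.409, edgeR adjusted p = 2.36e-06). It was 29.4-fold higher at day 14 than at day 1 (adjusted p = 5.07e-07). Hrnr (hornerin) was at 0.192, 0.563 and 0.570 CPM at day 1, at 0.474, 0.0978 and 0.348 CPM at day 7 and at 1.72, 1.40 and 3.34 CPM at day 14. It was higher at day 14 than at day 7 by 2.80 ± 0.571 (log2, adjusted p = 0.00101) and than at day 1 by 2.29 ± 0.548 (0.0026), with no overlap in either.

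Rptn (repetin) was highest at day 1. Rptn had 27, 56 and 67 counts at day 1, 0, 4 and 3 at day 7 and 10, 9 and 9 at day 14, which is 0.797 ± 0.357, 0.0411 ± 0.0358 and 0.183 ± 0.0154 CPM (SD, n = 3). The 3 days did not overlap. It was lower at day 7 than at day 1 (log2 -4.24 ± 0.706, edgeR adjusted p = 0.000343), and lower at day 14 than at day 1 (-2.11 ± 0.584, 0.00587). The first of these was -3.64 (adjusted p = 0.001) without day 7 library 1, which had no count. The rise of day 14 over day 7 (log2 2.13 ± 0.785, 0.0296) rested on few reads, and a GENCODE gene on the same strand (Gm37857) overlaps its exons. It lost its call without day 7 library 1 (log2 1.52, adjusted p = 0.082) or without any one of the day 14 libraries 4, 5 and 6 (0.0642, 0.0516 and 0.0555).

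The trichohyalin gene Tchh was at 23.3, 25.2 and 26.9 CPM at day 1, at 24.9, 22.8 and 20.2 CPM at day 7 and at 21.0, 20.2 and 18.7 CPM at day 14. Neighbouring ages overlapped, and neither step was called (edgeR adjusted p = 0.16 and 0.0744). Day 14 was 1.26-fold lower than day 1, without overlap (log2 -0.33 ± 0.085, adjusted p = 0.00341). Without day 7 library 3, day 14 was also called lower than day 7 (0.0162). The inner root sheath keratins, which mark the compartment where trichohyalin is best known, summed to 7.11 to 10.02 CPM for day 1, 4.82 to 32.0 for day 7 and 5.67 to 22.8 for day 14. The sum spread widely between libraries at days 7 and 14, and its makeup changed. At day 1 it was mostly Krt73 (5.35 to 7.59 CPM), which was at 0.339 to 1.70 CPM at day 14. In day 7 library 2, which had the highest sum, Krt71 was at 11.1 CPM and Krt25 at 8.74 CPM. Tchh ranged from 18.7 to 26.9 CPM over all 9 libraries. The part of follicle cells in the Tchh level was not tested.

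The late cornified envelope genes gave few reads at any age. The 14 Lce1 genes summed to 21, 35 and 41 counts at day 1, 58, 39 and 109 at day 7 and 80, 111 and 153 at day 14, or 0.514 ± 0.183, 1.22 ± 0.782 and 2.24 ± 0.735 CPM (SD, n = 3). Day 14 lay above day 1 in every library, and day 7 overlapped both. Lce1m, the Lce1 gene with the most reads, was higher at day 14 than at day 1 (log2 2.28 ± 0.558, edgeR adjusted p = 0.00268), with 29, 28 and 50 counts against 4, 12 and 11. At day 7 Lce1m had 33, 12 and 23 counts, above day 1 in CPM without overlap. That first step missed the threshold (log2 1.43 ± 0.568, adjusted p = 0.0545) and passed it without day 7 library 2 (0.0282) or with DESeq2 (0.04). Lce1a2 was also called higher at day 14 than at day 1 (log2 3.13 ± 1.11, 0.0223), with 12, 14 and 18 counts at day 14 against 6, 0 and 0 at day 1. That call ended when day 1 library 5 (0.0792) or 6 (0.0781), or day 14 library 6 (0.0642), was left out, and without day 1 library 4 the fitted value was 7.03, since the other day 1 libraries had no count. Lce1c was not called in any comparison, with 14, 23 and 19 counts at day 14 against 0, 11 and 14 at day 1 (log2 1.44 ± 0.79, adjusted p = 0.118). The other 11 Lce1 genes had too few counts to test, among them Lce1a1, with 8, 8 and 17 counts at day 14 against 0, 4 and 3 at day 1.

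Lce6a peaked at day 7. It had 26, 20 and 42 counts at day 1, 76, 108 and 100 at day 7 and 9, 21 and 14 at day 14. The day 7 libraries were above those of both other days. It was higher at day 7 than at day 1 by 1.81 ± 0.384 (log2, edgeR adjusted p = 0.00195), lower at day 14 than at day 7 (-2.50 ± 0.409, 0.000164) and not called between day 14 and day 1 (-0.69 ± 0.422, 0.157). The Lce3 genes, known in skin for their response to wounding, were near absent, with counts in only 2 of 6: Lce3c had 5, 2 and 2 counts at day 1 and none later, and Lce3b had 2 counts in day 7 library 2. Lce3c, Lce3d, Lce3e and Lce3f share 24.1% to 43.0% of their 100-base GENCODE transcript windows with other Lce3 genes. How reads from shared stretches were counted is not given. A count of 0 allows up to 3 counts, which is 0.0444 to 0.0599 CPM depending on the library and covers counting error only.

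Crct1 (cysteine-rich C-terminal 1) and Kprp (keratinocyte proline-rich protein) lie among the Lce genes. Crct1 had 7, 14 and 8 counts at day 1, 26, 16 and 20 at day 7 and 47, 50 and 88 at day 14. The days did not overlap in CPM. Crct1 was higher at day 14 than at day 7 (log2 1.77 ± 0.419, edgeR adjusted p = 0.00247) and than at day 1 (2.97 ± 0.454, 7.14e-05). The first week missed the threshold (1.20 ± 0.47, 0.0514) and passed it without day 1 library 5 (0.032) or without day 7 library 2 (0.0475). Kprp had 3, 6 and 11 counts at day 1, 11, 6 and 35 at day 7 and 34, 24 and 41 at day 14. Day 7 library 3 stood with the day 14 libraries and the other day 7 libraries with day 1. Kprp was called between day 14 and day 1 (log2 2.6 ± 0.729, adjusted p = 0.00641) and in neither step (0.112 and 0.171). Without day 7 library 3 day 14 was called higher than day 7 (0.013), and without day 7 library 2 day 7 was called higher than day 1 (0.0459).

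**Figure D3:**
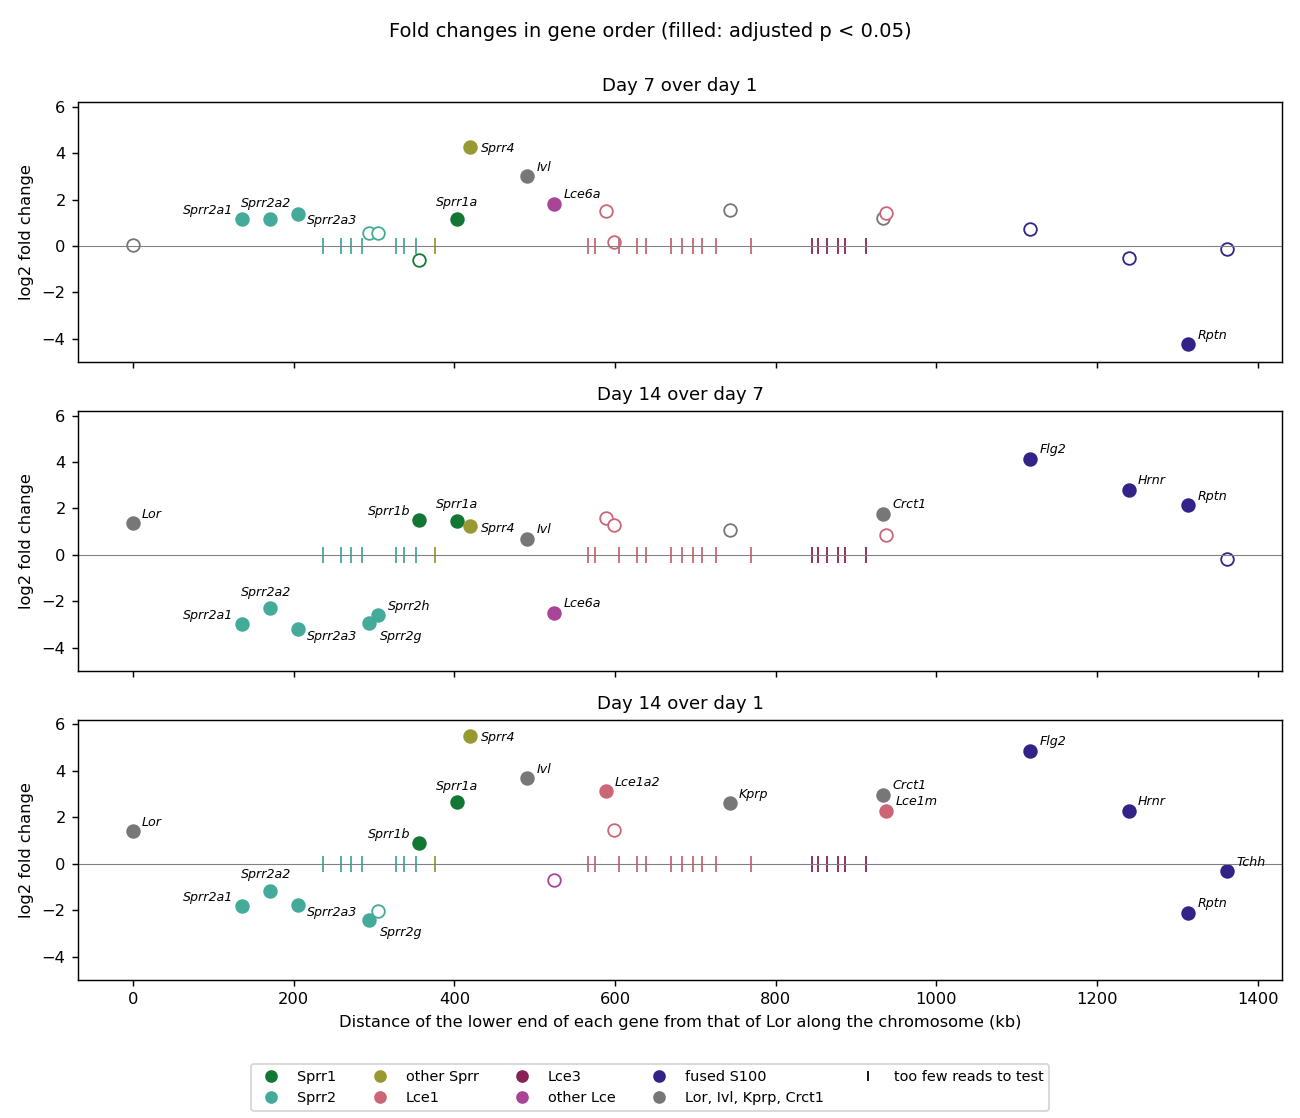
Log2 fold change of each tested member (circles, filled where the edgeR adjusted p was under 0.05) against the distance in kb of its lower end from that of Lor along chromosome 3, for day 7 over day 1, day 14 over day 7 and day 14 over day 1. Short upright lines mark the 25 members with too few reads to test. Between day 14 and day 7 the Sprr2 genes were lower while Lor on one side and Sprr1b, Sprr1a, Sprr4 and Ivl on the other were higher.

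Along the chromosome, the members tested for day 14 over day 7 were placed as follows. The tested Sprr2 genes, which fell, start 135.6 to 305.4 kb from the lower end of Lor. Sprr1b, Sprr1a, Sprr4 and Ivl, which rose, start at 356.5, 403.7, 420.0 and 490.6 kb. Lce6a, which fell, follows at 524.6 kb, and the Lce genes beyond it up to 911.9 kb are either untested or were not called in that comparison. Crct1, Flg2, Hrnr and Rptn, which rose, lie at 933.9, 1117, 1239 and 1313 kb. Lce1m, which was not called (edgeR adjusted p = 0.158), lies between Crct1 and Flg2 at 937.5 kb, and Tchh, which was not called, closes the row at 1362 kb.

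By day 14 most member transcripts were Sprr1a. To set genes of different length side by side, CPM were divided by the length in kb of each gene's longest coding transcript in GENCODE M21. Summed over the 45 members, CPM per kb came to 60.2, 60.4 and 77.3 at day 1, 168, 126 and 144 at day 7 and 288, 237 and 236 at day 14. The Sprr2 genes made up 40.0%, 31.4% and 28.9% of that sum in the day 1 libraries, 30.2%, 34.9% and 35.6% at day 7 and 2.52%, 3.55% and 2.15% at day 14. The Sprr1 genes made up 43.9%, 51.9% and 57.0%, then 53.8%, 48.5% and 45.8%, and at day 14 78.7%, 79.3% and 79.2%. For both groups the day 14 libraries stood apart and days 1 and 7 overlapped. A ratio of reads does not depend on library scaling: the Sprr2a copies had 3.64, 2.32 and 1.90 reads per Sprr1a read at day 1, 2.07, 2.67 and 2.83 at day 7 and 0.116, 0.159 and 0.103 at day 14. In order of mean CPM per kb at day 14, Sprr1a (195 ± 23.5) was followed by Sprr4 (21.9 ± 6.03), and no library of Sprr1a came near the range of Sprr4. Lor (8.16 ± 2.14), Ivl (6.58 ± 1.63), Sprr1b (5.03 ± 1.20), Sprr2a1 (3.86 ± 0.802) and Tchh (3.42 ± 0.201) came next. Each of these overlapped with its neighbour in that order, Sprr1b and Sprr2a1 included. At day 1 the order was Sprr1a (31.2 ± 8.92), Sprr2a1 (13.8 ± 1.81), Sprr2a2 (4.68 ± 0.478), Tchh (4.32 ± 0.307) and Lor (3.08 ± 0.164), with overlap between Sprr2a2 and Tchh. The longest Sprr2a1 transcript has 3003 bases and that of Sprr2h 752. The Sprr2 share per kb and the Sprr2a ranks therefore rest on which Sprr2a transcript is in use. Before division by length, Sprr2a1 (41.4 ± 5.44 CPM) stood above Sprr1a (25.2 ± 7.19 CPM) at day 1. The place of Sprr4 after Sprr1a at day 14 rests on its annotated 231 bases. Before that division Sprr4 (5.07 ± 1.39 CPM) stood below Tchh (19.9), Lor (14.5), Ivl (12.6) and Sprr2a1 (11.6).

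**Figure D4:**
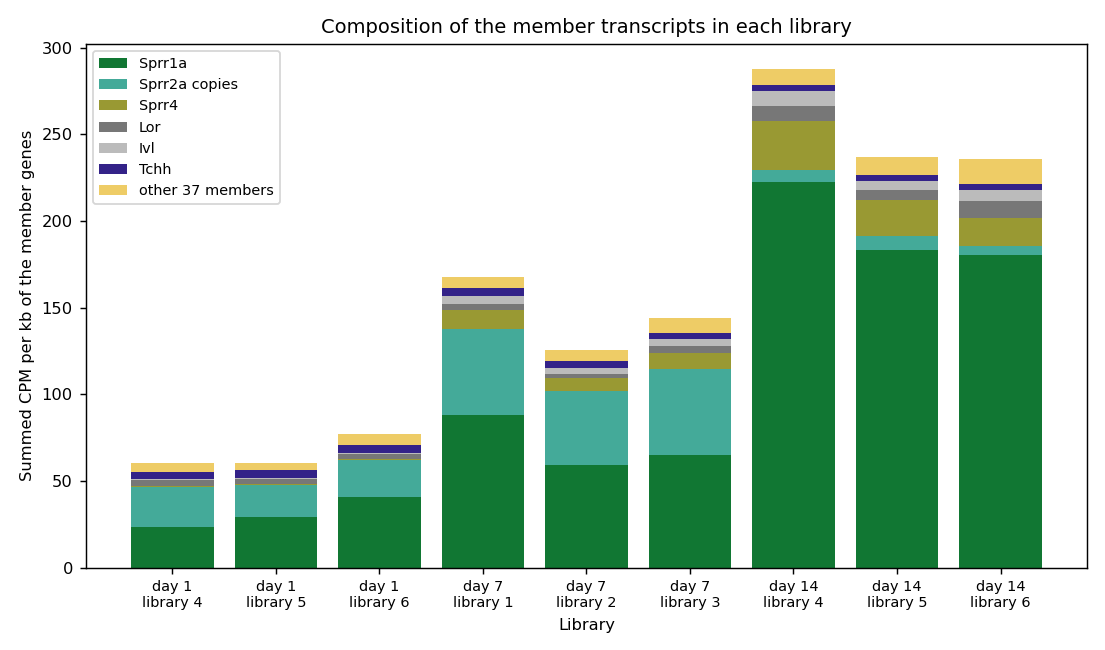
Summed CPM per kb of transcript of the 45 members in each of the 9 libraries, stacked by Sprr1a, the 3 Sprr2a copies, Sprr4, Lor, Ivl, Tchh and the other 37 members. The bars reach 60.2 to 77.3 at day 1, 126 to 168 at day 7 and 236 to 288 at day 14, where Sprr1a fills most of each bar and the Sprr2a share is 2.15% to 3.36%.

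The proteins of the envelope are joined by transglutaminases and lipid-linking enzymes, of which 7 were listed and tested. Between day 7 and day 1, 2 were higher and 1 lower (median log2 0.39), with 2 lower when day 1 library 4, day 7 library 1 or day 14 library 4 was left out, and between day 14 and day 7, 4 were higher and 2 lower (0.44). Of all tested genes, 25.5% were higher and 24.0% lower in the first comparison, and 32.5% and 35.1% in the second. Tgm3, the transglutaminase of the late envelope and the hair, averaged 131 ± 26.3 CPM on day 1, 670 ± 18.3 on day 7 and 115 ± 11.3 on day 14. It was higher at day 7 than at day 1 (log2 2.35 ± 0.138, edgeR adjusted p = 2.78e-06) and lower at day 14 than at day 7 (-2.54 ± 0.139, 8.31e-07), a course with the same signs as those of the Sprr2a copies and Lce6a. Tgm5 was lower in both steps (log2 -0.88 and -0.36, adjusted p = 2.07e-05 and 0.00932). Aloxe3, a lipoxygenase of the lipid envelope, was higher in both (1.31 and 1.82, 8.16e-05 and 1.35e-06).

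A list of 17 genes outside the complex (the scaffold list) held scaffold and desmosome genes, and also Krt1, Krt2, Krt10, Krt77, Krtdap, Sbsn, Dmkn, Cnfn and Csta1. Of the 17, 11 were higher and 3 lower at day 7 than at day 1 (5 lower without day 1 library 4). At day 14, 11 were higher and 3 lower than at day 7 (median log2 of the 2 steps 0.40 and 0.35). Over all tested genes, 25.5% were higher and 24.0% lower in the first step, and 32.5% and 35.1% in the second. Evpl, the envoplakin gene of the scaffold that receives involucrin, averaged 260 ± 21.2 CPM on day 1, 342 ± 9.82 on day 7 and 640 ± 23.3 on day 14 (day 14 over day 7 log2 0.91 ± 0.059, edgeR adjusted p = 5.92e-08). Dsg1a, a desmosomal cadherin with close copies, rose by 0.52 and 0.68 in the 2 steps (1.59e-05 and 7.65e-07). Csta1, one of the near-identical stefin A genes and so uncertain as a single copy, fell to 2.01 ± 0.281 CPM at day 14, against 38.3 ± 3.10 at day 1 (log2 -4.25 ± 0.101, 6.88e-12). Of 13 tested genes of filaggrin processing, 8 were higher and 1 lower in the first step and 7 higher and 2 lower in the second, or 4 lower without day 14 library 4 (medians 0.43 and 0.13). The gene lower in the first step was Asprv1 (log2 -1.15 ± 0.248, edgeR adjusted p = 0.00822). Those lower in the second with all libraries were Casp14 (-0.33, 0.0053) and Blmh (-0.68, 3.12e-08). Both were higher in the first (1.76 and 0.18, 4.36e-08 and 0.00285). Spink5, the inhibitor of the epidermal kallikreins, rose by 2.13 ± 0.142 and 1.55 ± 0.131 (1.85e-06 and 4.65e-06), Tmem79 by 0.49 and 0.54 (6.34e-05 and 1.38e-05), and the protease gene Prss8 by 1.64 ± 0.099 in the second step (3.1e-08), with an adjusted p of 0.853 in the first.

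Of 22 transcription regulators known from the complex or from terminal differentiation, 13 were higher and 3 lower at day 7 than at day 1, and 15 were higher and 4 lower at day 14 than at day 7. Their median log2 fold changes were 0.37 and 0.91, against -0.001 and -0.035 over all tested genes. Of all tested genes, 25.5% were higher and 24.0% lower in the first comparison, and 32.5% and 35.1% in the second. Nfe2l2, which encodes the stress factor Nrf2, averaged 55.7 ± 2.95 CPM on day 1, 103 ± 7.72 on day 7 and 223 ± 5.15 on day 14 and rose in both steps (log2 0.89 and 1.11, edgeR adjusted p = 1.66e-07 and 1.08e-08). Hopx, a homeodomain protein of differentiating keratinocytes, rose by 1.46 ± 0.071 and 0.66 ± 0.069 (1.42e-08 and 3.84e-06), and Grhl1, a grainyhead-like factor of the upper epidermis, by 0.69 ± 0.073 and 1.16 ± 0.073 (8.79e-06 and 5.16e-08). Prdm1, singled out after its values were seen because its signs match those of Rptn, was lower at day 7 than at day 1 (log2 -2.04 ± 0.25, 6.99e-05) and higher at day 14 than at day 7 (1.63 ± 0.251, 0.000196). These lists were drawn up with results of these data known, and no test of a list was made.

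**Figure D5:**
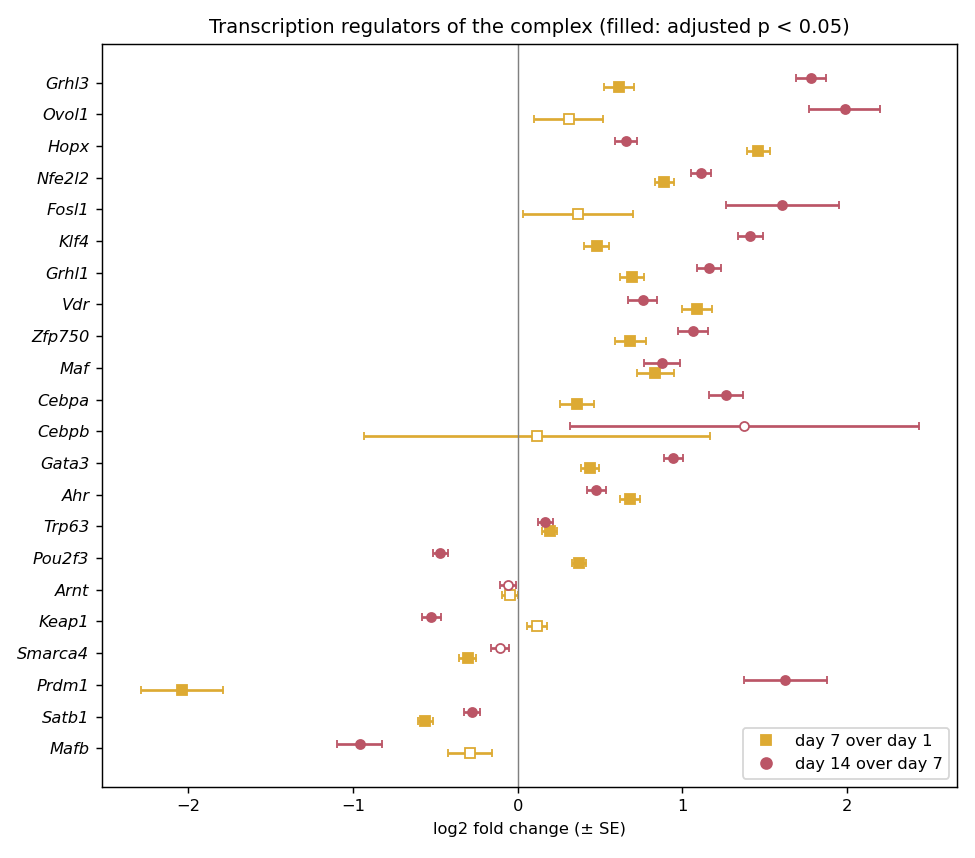
Log2 fold change (± SE) of the 22 regulators for day 7 over day 1 (squares) and day 14 over day 7 (circles), filled where the edgeR adjusted p was under 0.05. Most lie right of 0 at both steps, and Prdm1 lies at -2.04 in the first step and 1.63 in the second.

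The stress keratins Krt6a, Krt6b, Krt16 and Krt17, which join Sprr genes in wounded or irritated skin, were all lower at day 14 than at day 1, and 2 of 4 were lower in each step. Of all tested genes, 38.4% were lower at day 14 than at day 1, 24.0% in the first step and 35.1% in the second. The Krt16 call between day 14 and day 1 (log2 -0.58, edgeR adjusted p = 0.0331) ended when day 1 library 4 (0.0711) or 6 (0.0871), or day 14 library 4 (0.0940) or 5 (0.0942), was left out, and against a fold of 1.5 (0.559). Krt6b fell most in the first week, to 3.65 ± 0.679 CPM at day 7 against 21.6 ± 6.11 at day 1 (log2 -2.57 ± 0.226, edgeR adjusted p = 1.39e-05). Krt6a fell by 0.82 ± 0.116 and 0.40 ± 0.117 in the 2 steps (0.000392 and 0.0141), the second not called without day 14 library 6 (0.0552). Krt17 was lower at day 14 than at day 7 (-0.59 ± 0.154, 0.0109), and in the first week missed the threshold (0.0794). That step was called without day 7 library 1 (0.0102) or day 14 library 4 (0.0265), with DESeq2 (0.0462) and with library totals alone as the scale (0.0324). Without day 7 library 1 all 4 of these keratins were lower at day 7 than at day 1, and without day 14 library 6 the count lower at day 14 than at day 7 was 1. Of 7 other genes of the complex, 3 could be tested. The peptidoglycan-binding gene Pglyrp4 was at 32.2 ± 3.09, 152 ± 8.61 and 80.8 ± 7.61 CPM and was called in both steps (log2 2.24 and -0.92, adjusted p = 7.77e-09 and 1.97e-06), Pglyrp3 was higher at day 14 than at day 7 (1.85 ± 0.386, 0.00104) and, only without day 1 library 4, at day 7 than at day 1 (0.0181), and Prr9 was not called (0.0739 and 0.97; without day 7 library 1 the first was 0.0253). Of 7 tested inner root sheath partners of trichohyalin, 2 were higher and none lower at day 7 than at day 1, and 3 were higher (Gata3, Krt25 and Krt28) and 1 lower at day 14 than at day 1. Over all tested genes, 25.5% were higher and 24.0% lower at day 7 than at day 1, and 35.5% and 38.4% at day 14 than at day 1. In that comparison only Gata3 was called higher when day 1 library 4, 5 or 6 was left out, with adjusted p of 0.0655, 0.0558 and 0.0704 for Krt25 and 0.0830, 0.0710 and 0.101 for Krt28. Without day 7 library 2 the count higher was 5. Gata3 rose in both steps (0.44 and 0.95, 4.28e-05 and 3.02e-08). Krt73 was lower at day 14 than at day 1 (-2.98 ± 0.711, 0.0069). Krt25 was called higher at day 7 than at day 1 (4.39 ± 1.19, 0.0209), but not when day 1 library 4, 5 or 6 was left out (0.0705, 0.0602 and 0.0744), and those fits each left 1 list gene higher.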

How the data were processed

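RNA was measured in 9 libraries of sorted mouse skin cells, 3 at each of postnatal days 1, 7 and 14. The submitters' processing notes name HISAT2 2.1.0, StringTie 1.3.4d, Trimmomatic and bcl2fastq 2.20.0, with mm10 as the build. How reads were assigned to genes, with which strand setting and annotation, is not given in these sources. No exon of a member overlaps a GENCODE gene on the other strand. Per the file headers, the deposited values used here are whole-number read counts per gene, without normalization. Headers match columns to a day and not to a single sample, so 1 measure, the counts, was used, and the 18 columns of TPM and FPKM were not. Levels between genes were therefore set per kb of GENCODE M21 transcript, in place of the planned columns.

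TMM scaling and the filterByExpr filter preceded a robust quasi-likelihood F test (edgeR 4.0.16, R 4.3.3), with day as the factor and all 9 libraries in 1 fit. It covered 14507 genes, with Benjamini-Hochberg adjustment over all of them, a threshold of 0.05 and no minimum fold. CPM are on TMM-scaled libraries, and errors are SD over 3 libraries or the SE of a log2 fold change. The test was checked on simulated counts. Alternatives were other scaling factors and filters, a fold minimum of 1.5, DESeq2 1.42.0, limma-voom (limma 3.58.1), the 2 compared days alone and leaving out each library. Sums over members were given no p.

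The members and lists were chosen with earlier results of these data known, and the alternatives for list genes were added after the data were seen. Members were named by rule, most of them with values per library. These were the members outside the Lce and Sprr families and up to 4 members of highest mean CPM in each Lce or Sprr subfamily. The 3 called members of largest log2 fold change in each comparison were added. Values per library were left out for Sprr2a2 and Sprr2a3 and were given in part for the Lce1 genes. Up to 3 genes of smallest adjusted p were named from each further list. Others were named to tell the makeup of a list or after their values were seen. Promoters came from RefSeq tables of GRCm38.p6, matched by gene identifier.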

Additional observations from a re-analysis of the deposited data

How the results depend on the processing

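Over 60 pairs of a tested member and a comparison, 41 kept their call under all of up to 19 alternatives. In 2 of the 41, neither of them called, the direction turned under some alternatives (day 7 over day 1, lowest log2 -0.06 for Lor and -0.44 for Lce1c). Of 1136 single values, 1081 kept the call, 33 lost it, 22 gained it and 0 called values changed sign. The count of members lower at day 7 than at day 1 was 1, but 3 with library totals alone as the scale and 2 with DESeq2, and it ranged from 1 to 2 when each library was left out. The other counts of members higher or lower stayed within 1.5 times of those reported. Against a fold of 1.5, calls were also lost for Lce1a2 between day 14 and day 1 (adjusted p = 0.0529), Sprr2g (0.0588), Sprr2h (0.0784) and Rptn (0.107) between day 14 and day 7, and Sprr1b (0.115) and Tchh (1) between day 14 and day 1. Over all genes that test called 775 higher and 1013 lower at day 7 than at day 1, against 3695 and 3476 without a fold minimum, 1907 and 1286 at day 14 than at day 7, against 4713 and 5095, and 2619 and 2435 at day 14 than at day 1, against 5150 and 5566. With library totals alone the median log2 of all genes moved to -0.10, -0.21 and -0.32, and 35.7%, 34.9% and 31.9% of called genes were higher, against 51.5%, 48.1% and 48.1% with TMM. On that scale the called rise of day 14 over day 7 turned to a log2 of -0.00858 for Dsp, -0.0505 for Pkp1, -0.0456 for St14 and -0.00651 for Trp63, and that of St14 over day 1 to -0.14. The alternatives for list genes were chosen after seeing the data. Against a fold of 1.5, 3 regulators (not 13), 3 genes of the scaffold list (not 11) and 4 of filaggrin processing (not 8) were higher at day 7 than at day 1. At day 14, 6 genes of the scaffold list (not 11) and 3 of filaggrin processing (not 7) were higher than at day 7. The inner root sheath genes higher at day 7 than at day 1 numbered 5 with DESeq2 and 1 with limma-voom, against 2. No paired analysis was possible because the numbers in the column headers cannot be matched to the replicate numbers of the sample titles. Precision is limited for members with few counts per library, and counting limits do not cover variation between animals.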
